A study of Rattus norvegicus with 6 samples.

Results

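The nuclear genes of the mitochondrial respiratory chain were followed in rat liver after tienilic acid (TA), a diuretic that also lowers urate and was taken off the market for liver injury. Members were all genes whose single symbol in the array annotation begins with Nduf, Uqcr, Atp5, or Cox with a digit from 4 to 8, or is Sdha, Sdhb, Sdhc, Sdhd or Cyc1, each represented by its brightest probe set. There were 87 of them among 14217 genes on the array: 40 of complex I, 4 of complex II, 8 of complex III, 19 of complex IV and 16 of complex V. The prefixes also took in 9 genes that code for no structural subunit, namely 6 assembly factors of complex I, the supercomplex factor Cox7a2l, the inhibitor Atp5if1 and the pseudogene Cox6c-ps1.

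Male Sprague Dawley rats received TA by gavage at 100 mg/kg, dissolved with sodium bicarbonate, and control rats received sodium bicarbonate alone. The groups were TA at 6 h (1 dose, 2 arrays of 1 animal each), vehicle at 6 h (1 array, 2 rats' RNA in a pool), TA at 24 h (a second dose at 16 h, 2 arrays of 1 animal each) and vehicle at 24 h (the vehicle given at the same hours, 1 pooled array). The comparison of TA with vehicle at each time asks what the drug does to liver transcripts early on. Values are log2 expression from Affymetrix Rat230_2 arrays, so that a difference of 1 is a doubling, and levels of different genes are not compared.

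The respiratory chain passes electrons from NADH, through complex I, and from succinate, through complex II, to ubiquinone, then through complex III and cytochrome c to complex IV, which reduces oxygen. Complexes I, III and IV pump protons out of the matrix, and complex V, the ATP synthase, lets them back to make ATP. Mitochondrial DNA codes for a few core subunits, and all the genes described here as members are nuclear. Hepatocytes are rich in mitochondria and use this ATP for urea and glucose synthesis, and the nuclear subunit genes are known as housekeeping genes under transcription factors such as NRF1, the ETS factor GABP and YY1.

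Promoters were examined because many members shared a direction at each time. RefSeq windows of 300 bases, 250 before and 50 after the gene start (build GRCr8), were at hand for 78 of the 87 members, and each motif was searched on both strands. The NRF1 motif GCATGCGC was in 9 of 78 windows (11.5%), against 5.04% of the 8713 measured genes with a window and 2.47% of all promoters. The ETS motif CCGGAAG was in 22 (28.2%), against 18.2% of measured genes and 8.75% of all promoters. The YY1 motif AAGATGGCG was in 11 (14.1%), against 3.87% of measured genes and 1.73% of all promoters. It lay on the sense strand in all 11, and in 10 of them it began between 5 bases before and 40 bases after the gene start. The ETS motif ends in the 3 letters that open the YY1 motif, so that matches of both can overlap. At least 1 motif was in 33 windows, more than 1 in 8, and all 3 in the window of Ndufa6.
The windows of 3 subunits show where each motif lies, in capitals: NRF1 in Atp5po (the oligomycin-sensitivity subunit of the ATP synthase stalk), ETS in Ndufb7 and YY1 in Ndufa9 (both accessory subunits of complex I). They are the structural subunits with the largest 24 h difference among holders that were higher in both animals.
Atp5po, NRF1, chr11:44657434-44657733, minus strand: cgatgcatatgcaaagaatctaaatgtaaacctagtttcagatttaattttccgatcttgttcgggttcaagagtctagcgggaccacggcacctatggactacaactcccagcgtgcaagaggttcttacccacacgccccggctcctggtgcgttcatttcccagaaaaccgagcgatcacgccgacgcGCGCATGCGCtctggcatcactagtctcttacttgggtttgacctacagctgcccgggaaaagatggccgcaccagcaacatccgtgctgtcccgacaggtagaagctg
Ndufb7, ETS, chr19:41477242-41477541, minus strand: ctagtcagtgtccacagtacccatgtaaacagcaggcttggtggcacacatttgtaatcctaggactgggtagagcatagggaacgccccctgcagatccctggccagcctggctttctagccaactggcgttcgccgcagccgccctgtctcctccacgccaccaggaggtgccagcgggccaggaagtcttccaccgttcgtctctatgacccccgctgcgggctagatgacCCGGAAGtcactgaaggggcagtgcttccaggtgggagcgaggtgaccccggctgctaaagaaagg
Ndufa9, YY1, chr4:161374121-161374420, minus strand: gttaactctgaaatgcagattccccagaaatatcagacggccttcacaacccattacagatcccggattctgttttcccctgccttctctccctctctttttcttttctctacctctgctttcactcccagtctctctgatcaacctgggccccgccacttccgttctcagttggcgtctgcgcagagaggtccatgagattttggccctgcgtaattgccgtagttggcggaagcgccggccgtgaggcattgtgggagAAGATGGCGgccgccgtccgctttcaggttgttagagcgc
In Atp5po the NRF1 match reads on both strands, so that the capitals run over 2 overlapping sites.

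Of the 87 members, 80 lay above the filter on low values (a mean over the 6 arrays above 2.82, the 40th percentile of all probe sets), and 68 had a mean of 10 or above. The 7 below it were Cox4i2, Cox6a2, Cox6b2, Cox7a1, Cox7b2, Cox8b and Ndufa4l2, all isoforms of complex IV subunits known from lung, heart, muscle, testis or hypoxic cells. They stood at the floor on every array. Cox4i2, the lung isoform of subunit 4, had 2.04 and 2.08 in TA livers at 6 h, against 2.07 in the vehicle pool, and 2.06 and 2.05 in TA livers at 24 h, against 2.07 in the vehicle pool. Cox7a1, the heart and muscle isoform of subunit 7a, came nearest to the filter, at 2.73 and 2.85 (TA at 6 h), 2.84 (vehicle at 6 h), 2.82 and 2.76 (TA at 24 h) and 2.80 (vehicle at 24 h). Cox6a2, the heart and muscle isoform of subunit 6a, lay between 1.93 and 1.96 on the 6 arrays. The counterparts used in liver, Cox4i1, Cox6a1, Cox6b1 and Cox8a, were all measured and are described with complex IV. Of the muscle markers with a probe set, Acta1, Ckm, Mb and Tnnt3 were at the floor and Myh4, between 2.82 and 2.94, was just above the filter. Of the 3 brown fat markers, Ucp1 and Cox7a1 were at the floor. The third, Cidea, had 4.75 and 5.20 in TA livers at 6 h, against 5.47 in the vehicle pool, and 4.38 and 5.11 in TA livers at 24 h, against 5.23 in the vehicle pool.

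Across the series, array medians lay between 3.27 and 3.31 (log2), and arrays correlated between 0.991 and 0.997 over probe sets. All 10 hepatocyte markers looked up were measured, with median differences of TA from vehicle of 0.00 at 6 h and 0.01 at 24 h. Markers of stellate cells and fibroblasts (6 of 7 measured, Des at the floor) had a median difference of -0.59 at 24 h, and their summed level (log2) was 12.5 and 12.9 in TA livers, against 13.1 in the vehicle pool. At 6 h their median difference was 0.11, with summed levels of 13.8 and 13.3 in TA livers, against 13.4 in the vehicle pool. The 8 measured Kupffer cell and macrophage markers had median differences of 0.22 at 6 h and -0.09 at 24 h. Their summed levels were 13.2 and 12.9 in TA livers at 6 h, against 12.9 in the vehicle pool, and 12.6 and 12.9 at 24 h, against 12.8. The 5 measured markers of sinusoidal endothelium had -0.02 and -0.16, the 4 of erythroid cells 0.21 and -0.14, and the 2 of cholangiocytes (Krt7 at the floor) 0.09 and 0.02. The 2 measured neutrophil markers had 0.34 and -0.57, at summed levels between 4.85 and 5.82. The part of these cell types in the results was not tested. In bulk liver, fewer cells of a type and less RNA per cell cannot be told apart. The fluidics runs, inferred from the array settings, put the 6 h vehicle pool and TA animal 1 of 6 h together, and the 4 remaining arrays in a later run, so that only the 24 h comparison lies within 1 run.

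At 6 h after TA the respiratory chain genes were mostly a little below the vehicle pool, in all 5 complexes. Over the 80 measured members the TA minus vehicle difference (log2) centred on -0.09 (median; -0.06 and -0.10 for animals 1 and 2), a level lower by 5.99% in the middle gene. Over all 10449 measured genes the median was -0.03, and over the 2065 genes as bright as most members (a mean of 10 or above) it was -0.07. Of the members, 44 lay below the median of the bright genes and 36 above it. In both animals 53 of 80 members (66.2%) were lower than the pool, against 38.4% of all measured genes and 49.5% of the bright ones. Another 8 (10.0%) were higher in both, against 22.9% and 17.9%.
No member passed limma's test at 6 h (adjusted p under 0.05 over 18625 probe sets; the smallest was 0.902, for Ndufs7), where 0.0% of all probe sets passed. No member had an unadjusted limma p under 0.05 either, against 5.63% of measured genes. Both animals share 1 vehicle array, so the same side in both is not 2 independent observations, and the median standard error of a member's difference, 0.12, exceeded the median shift. Within the first fluidics run, which holds the pool and animal 1, the 6 h median was -0.06. With quantile normalization it was -0.02, with 31 members lower and 23 higher in both animals, and with arrays centred on the bright genes (chosen after seeing the data) it was -0.03, with 35 lower and 15 higher.

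At 24 h, 8 h after the second dose, most members stood slightly above the vehicle pool instead. The median log2 difference was 0.11 (0.10 in each animal), a level higher by 8.25% in the middle gene, against -0.01 over all measured genes and 0.02 over the bright ones. In both animals 51 of 80 members (63.7%) were higher than the pool, against 28.1% of all measured genes and 35.8% of the bright ones. Lower in both were 11 members (13.8%), against 34.5% and 25.7%.
The 24 h fit called 0.00537% of all probe sets and no member (limma, smallest adjusted p 0.950, for Cyc1 and Ndufs3), and 0 members had an unadjusted limma p under 0.05, against 5.16% of genes. Single differences ran between -0.21 for Cox7b and 0.38 for Ndufa8, and 3 members (Ndufa8, Ndufa12 and Ndufaf8) exceeded 0.3. Centred on the bright genes, the 24 h median was 0.07, with 40 members higher and 18 lower in both animals.

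**Figure D1:**
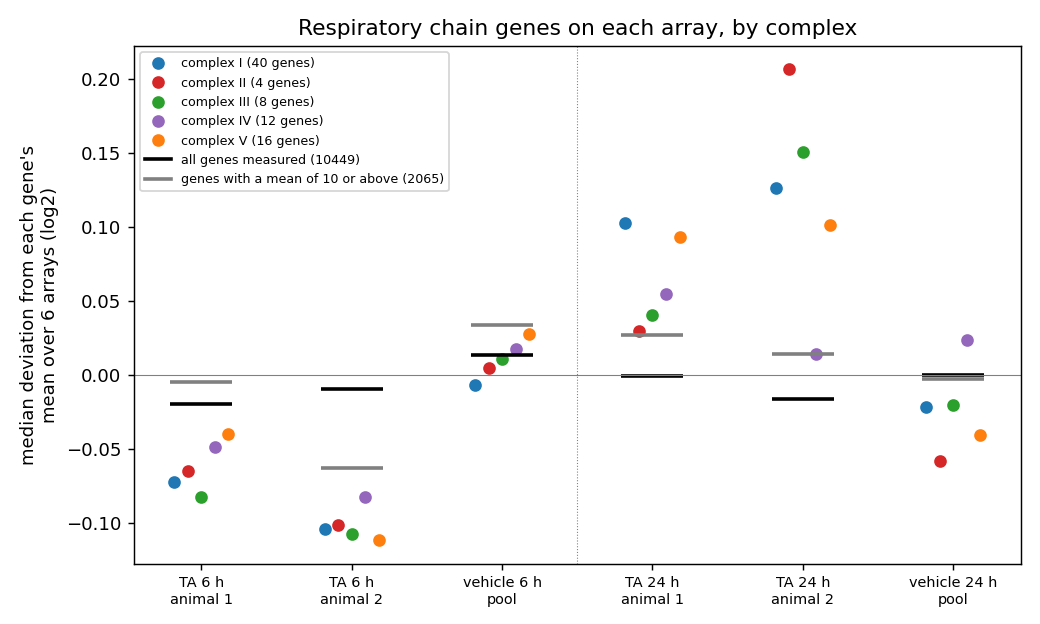
Median deviation (log2) of the measured genes of each complex from each gene's own mean over the 6 arrays, per array, with all 10449 genes as black bars and the 2065 genes with a mean of 10 or above as grey bars. All 5 complexes lie below 0 on both TA arrays of 6 h and above 0 on both TA arrays of 24 h, and the vehicle pools lie between -0.06 and 0.03.

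Lower in both animals at 6 h and higher in both at 24 h were 31 of 80 members (38.8%), against 10.3% of all measured genes and 14.1% of the bright ones. The opposite course was taken by 0 members, against 6.74% and 3.29%. Such shares are high wherever both separate shifts are, and whether the same genes made up both was not tested.
The pools of the 2 times, 24 h minus 6 h, differed by a median of 0.00 over these genes. Gene by gene they were not always close, with differences from -0.34 for Cox7a2l to 0.76 for Ndufaf4. Below both pools at once were 39 members in both TA animals of 6 h (20.4% of all measured genes, 29.8% of the bright ones). Above both pools were 36 members in both TA animals of 24 h (14.6% and 20.5%).
TA livers of 24 h were also set against TA livers of 6 h without any pool, a comparison added after the data had been seen. All 4 pairs of animals put the 24 h liver higher for 56 members (70.0%), against 24.0% of all measured genes and 35.9% of the bright ones, and lower for 3, against 23.2% and 21.5%. The median of this difference was 0.19 over the members, 0.00 over all measured genes and 0.05 over the bright ones. Hour of death, number of doses and, in part, fluidics run differ between these livers along with time after TA, and their parts cannot be told apart.
Limma called 0 members in this comparison and 0.0% of all probe sets. Unadjusted limma p-values under 0.05 were found for 14 of 80 members, all higher at 24 h. In either direction 17.0% of all measured genes had one, a share near that of the members. Higher at 24 h with such a p were 977 of the 10449 measured genes and 305 of the 2065 bright ones. Among the members the smallest adjusted p was 0.188, for the assembly factor Ndufaf4, whose pools differed by 0.76 in the same direction.

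**Figure D2:**
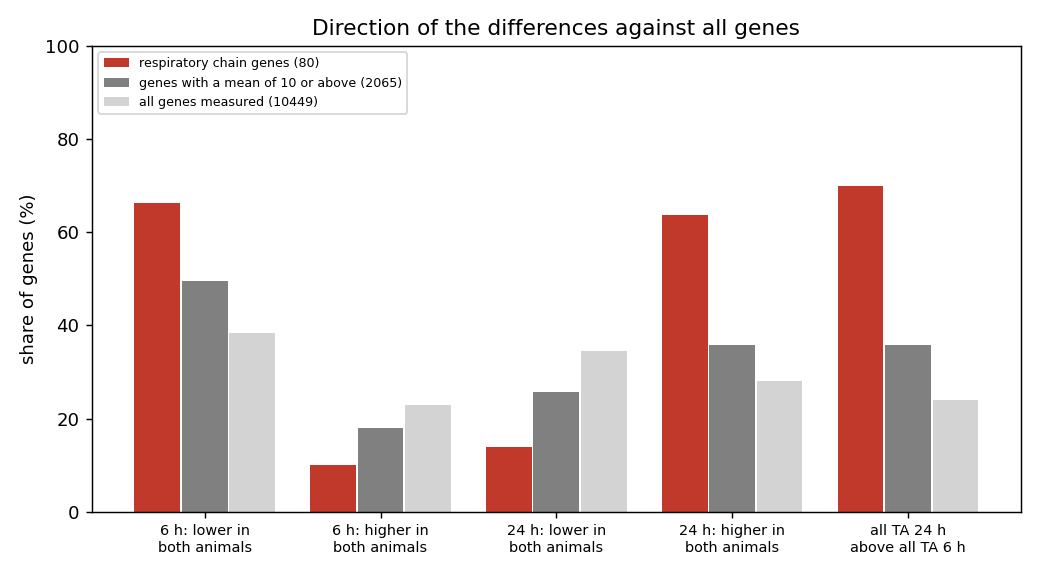
Share (percent) of the 80 measured members, of the 2065 genes with a mean of 10 or above and of all 10449 measured genes on the named side of the vehicle pool in both animals, or with both TA livers of 24 h above both of 6 h. The members' bars stand above both backgrounds for lower at 6 h (66.2%), higher at 24 h (63.7%) and TA at 24 h above TA at 6 h (70.0%).

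Averaged over both times, 0 members passed limma's test (smallest adjusted p 0.772), where 0.00537% of all probe sets did. One member had an unadjusted limma p under 0.05, against 6.3% of genes: Ndufa12, an accessory subunit of complex I, at 0.28 ± 0.10 (SE). The difference of the 2 effects, 24 h minus 6 h, was called for 0 members and 0.00537% of probe sets. No member had an unadjusted p under 0.05 there, against 4.61% of genes.

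Complex I, the NADH dehydrogenase, had 24 of its 40 measured genes (60%) lower in both animals at 6 h and 6 (15%) higher. At 24 h 25 (62.5%) were higher and 5 (12.5%) lower. Of the bright genes, 49.5% were lower and 17.9% higher at 6 h, and 35.8% higher and 25.7% lower at 24 h. Over all measured genes these shares were 38.4%, 22.9%, 28.1% and 34.5%. The median difference of complex I was -0.09 at 6 h and 0.12 at 24 h. The 6 core subunits had medians of -0.09 and 0.17, the 28 accessory subunits -0.09 and 0.11, and the 6 assembly factors -0.04 and 0.07.
Among the core subunits, which carry the flavin and the iron-sulfur clusters, Ndufv2 had the largest 6 h difference. It read 12.58 and 12.50 in TA livers at 6 h, against 12.79 in the vehicle pool, and 12.76 and 12.92 in TA livers at 24 h, against 12.68 in the vehicle pool. Both animals lay below their pool at 6 h (-0.25 ± 0.13 SE, n = 2) and above it at 24 h (0.16 ± 0.13).
Ndufs7, which holds the last cluster before ubiquinone, had 11.84 and 11.90 in TA livers at 6 h, against 12.10 in the vehicle pool, a difference of -0.23 ± 0.10. At 24 h it had 11.79 and 11.77 in TA livers, against 11.81 in the vehicle pool, so that the pool itself was lower by then. Ndufs3, the core subunit of the ubiquinone module, was chosen for its 24 h p after its values were seen. It had 11.88 and 11.93 in TA livers at 24 h, against 11.64 in the vehicle pool (0.26 ± 0.10), and 11.73 and 11.68 against 11.72 at 6 h. Ndufv1, which binds NADH, differed by -0.04 ± 0.16 at 6 h and 0.18 ± 0.16 at 24 h. Ndufs8 had 0.01 ± 0.09 and 0.19 ± 0.09, and Ndufs1 -0.14 ± 0.24 and 0.12 ± 0.24. In Ndufs1 the 2 TA animals of 24 h fell on either side of the pool.
Of the accessory subunits, Ndufa12 was the 1 named gene of complex I above the pool in all 4 TA livers with a difference over 0.2 at both times. It had 11.77 and 11.99 in TA livers at 6 h, against 11.67 in the vehicle pool (0.21 ± 0.14), and 12.17 and 12.18 at 24 h, against 11.82 (0.35 ± 0.14). Ndufa8, which faces the intermembrane space, had 11.37 and 11.71 in TA livers at 24 h, against 11.16 in the vehicle pool. That is the largest member difference at this time, 0.38 ± 0.22, with animal 2 well above animal 1. At 6 h Ndufa8 read 11.31 and 11.03, on either side of the pool at 11.16. Ndufa6 had 10.76 and 10.55 in TA livers at 6 h, against 10.91 in the vehicle pool (-0.26 ± 0.14), and -0.06 ± 0.14 at 24 h. Ndufb1 was lower in both animals at both times, by values of -0.15 ± 0.12 and -0.09 ± 0.12.
The assembly factors, which build the enzyme and leave it, were less uniform. Ndufaf8 had 8.31 and 8.08 in TA livers at 6 h, against 8.04 in the vehicle pool (0.16 ± 0.17), and 8.25 and 8.04 at 24 h, against 7.84 (0.31 ± 0.17). Ndufaf4 had 9.18 and 9.46 in TA livers at 6 h, against 9.48 in the vehicle pool, and 10.18 and 10.09 at 24 h, against 10.24. Its levels followed the time in treated and vehicle rats alike, and its differences of TA from vehicle were -0.16 ± 0.16 and -0.11 ± 0.16.

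**Figure D3:**
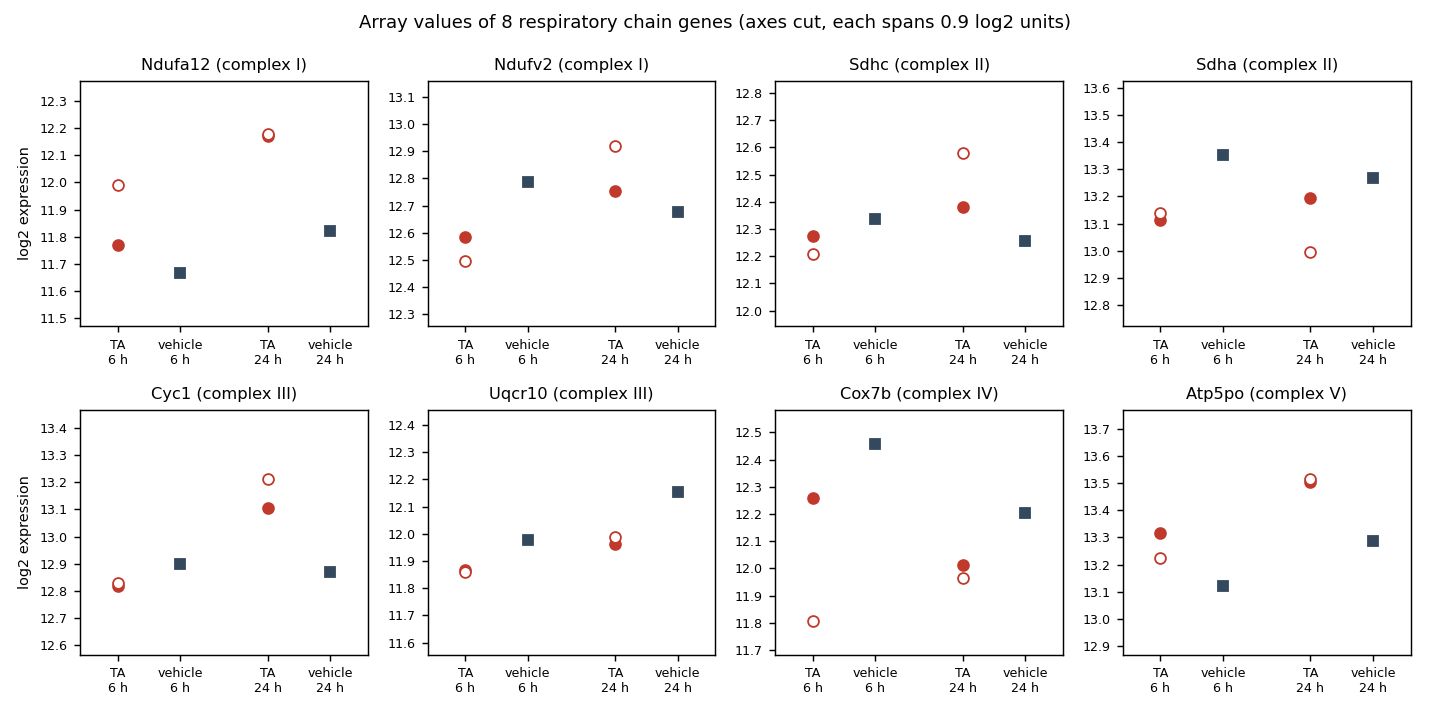
Log2 level of 8 members named in the text on each of the 6 arrays, with TA livers left of the vehicle pool of the same time. Circles are TA animals 1 (filled) and 2 (open) and squares are pools. Ndufv2, Sdhc and Cyc1 lie below the pool in both TA livers at 6 h and above it at 24 h, Ndufa12 and Atp5po above it at both times, and Sdha, Uqcr10 and Cox7b below it at both.

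Complex II, succinate dehydrogenase, links the citric acid cycle to the chain, and Sdha stood apart from the other genes of the complex at 24 h. Sdha, the flavoprotein that oxidises succinate, had 13.11 and 13.14 in TA livers at 6 h, against 13.35 in the vehicle pool (-0.23 ± 0.13), and 13.19 and 13.00 at 24 h, against 13.27 (-0.17 ± 0.13). It was below the pool in all 4 TA livers.
The membrane anchors, which bind ubiquinone, were below the pool at 6 h and above it at 24 h. Sdhc had 12.27 and 12.21 in TA livers at 6 h, against 12.33 in the vehicle pool (-0.09 ± 0.13), and 12.38 and 12.58 at 24 h, against 12.26 (0.22 ± 0.13). Sdhd had 12.70 and 12.63 in TA livers at 6 h, against 12.76 in the vehicle pool (-0.09 ± 0.11), and 12.88 and 13.02 at 24 h, against 12.76 (0.19 ± 0.11). A second probe set of Sdhd gave -0.04 and 0.21. Sdhb, the iron-sulfur subunit, had -0.01 ± 0.16 and 0.18 ± 0.16. The contrast between Sdha and the others was noticed in the data and was not tested.

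Complex III, the cytochrome bc1 complex, had medians of -0.10 at 6 h and 0.08 at 24 h. At 6 h 6 of 8 genes (75%) were lower in both animals and 0 higher, against 49.5% and 17.9% of the bright genes. At 24 h 5 (62.5%) were higher and 2 (25%) lower, against 35.8% and 25.7%. Cyc1, cytochrome c1, which hands electrons to cytochrome c, had 12.82 and 12.83 in TA livers at 6 h, against 12.90 in the vehicle pool (-0.08 ± 0.10). At 24 h it had 13.10 and 13.21 in TA livers, against 12.87 in the vehicle pool, a difference of 0.29 ± 0.10 (limma, adjusted p = 0.950). The TA livers of 24 h thus stood above both pools and the TA livers of 6 h below both.
Uqcrc2 and its partner Uqcrc1 are called core proteins but were counted here with the accessory subunits. Uqcrc2, on the matrix side, had 12.20 and 12.32 in TA livers at 24 h, against 12.03 in the vehicle pool (0.23 ± 0.12), and -0.03 ± 0.12 at 6 h. Uqcrc1 had 0.01 ± 0.13 and -0.02 ± 0.13. The Rieske iron-sulfur subunit Uqcrfs1 had 12.20 and 12.10 in TA livers at 6 h, against 12.36 in the vehicle pool (-0.21 ± 0.16), and 12.10 and 12.38 at 24 h, against 12.10 (0.14 ± 0.16). One TA animal of 24 h was level with its pool to 2 decimals.
The small accessory subunits Uqcr10 and Uqcrq were lower in both animals at both times. Uqcr10 had 11.96 and 11.99 in TA livers at 24 h, against 12.15 in the vehicle pool (-0.18 ± 0.09), after -0.11 ± 0.09 at 6 h. Uqcrq had -0.15 ± 0.11 and -0.10 ± 0.11.

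Complex IV, cytochrome c oxidase, had the smallest median of the 5 complexes at 24 h, 0.04. Of its 12 measured genes 5 (41.7%) were higher and 2 (16.7%) lower in both animals. These shares were near those of the bright genes, 35.8% and 25.7%. At 6 h the median of complex IV was -0.07, as for the bright genes. Lower in both animals were 9 (75%) and higher 1 (8.33%), against 49.5% and 17.9%. Cox4i1, the subunit 4 used in liver, had 12.49 and 12.66 in TA livers at 6 h, against 12.79 in the vehicle pool (-0.21 ± 0.17). At 24 h its animals read 12.95 and 12.68, on either side of the pool at 12.79.
Cox7b had the largest member difference at 6 h. It had 12.26 and 11.81 in TA livers at 6 h, against 12.46 in the vehicle pool (-0.42 ± 0.23), and 12.01 and 11.96 at 24 h, against 12.20 (-0.21 ± 0.23). The animals of 6 h differed by more than the 24 h difference from the pool.
Cox5a was the 1 gene of the complex higher in both animals at 6 h, at 7.26 and 7.49 in TA livers, against 7.10 in the vehicle pool (0.27 ± 0.24). At 24 h it had 7.89 and 7.46 in TA livers, which straddled the vehicle pool at 7.52. Another probe set names Cox5a together with a second gene and was not used. Cox5b had -0.04 ± 0.10 and 0.16 ± 0.10, and Ndufa4, a subunit first assigned to complex I, -0.05 ± 0.13 and 0.14 ± 0.13. Of the liver isoforms, Cox8a had -0.14 ± 0.14 and 0.12 ± 0.14, Cox6a1 -0.06 ± 0.13 and 0.00 ± 0.13, and Cox6b1 -0.07 ± 0.09 and -0.08 ± 0.09. Cox7a2l, the factor that joins complexes III and IV, had 0.01 ± 0.13 and 0.14 ± 0.13.

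Complex V, the ATP synthase, had medians of -0.08 at 6 h and 0.11 at 24 h. At 6 h 11 of 16 genes (68.8%) were lower and 1 (6.25%) higher in both animals, against 49.5% and 17.9% of the bright genes. At 24 h 13 (81.2%) were higher and 1 (6.25%) lower, against 35.8% and 25.7%. The 4 genes of the peripheral stalk, which holds the catalytic head still, were all higher in both animals at 24 h (median 0.17). Atp5po, one of them, had 13.50 and 13.51 in TA livers at 24 h, against 13.29 in the vehicle pool (0.22 ± 0.10). It was also the 1 gene of complex V higher in both animals at 6 h, at 13.32 and 13.22, against 13.12 (0.15 ± 0.10). Atp5pf, another stalk gene, had 12.89 and 12.80 in TA livers at 6 h, against 13.06 in the vehicle pool (-0.21 ± 0.12), and 0.14 ± 0.12 at 24 h.
The catalytic head showed little at 6 h. Atp5f1b, the beta subunit that makes ATP, had 14.40 and 14.59 in TA livers at 24 h, against 14.25 in the vehicle pool (0.25 ± 0.17), and 14.62 and 14.38 at 6 h, on either side of the pool at 14.52. The 24 h pool was the lowest of the 6 arrays for this gene, and the TA livers of both times overlapped. Atp5f1a, the alpha subunit, had -0.01 ± 0.15 and 0.10 ± 0.15. Atp5f1e, the epsilon subunit of the rotating central stalk, was the 1 gene lower in both animals at 24 h (-0.07 ± 0.10, after -0.03 ± 0.10).
The 5 small membrane subunits had medians of -0.15 at 6 h and 0.09 at 24 h. Atp5mf had 13.56 and 13.53 in TA livers at 6 h, against 13.76 in the vehicle pool (-0.22 ± 0.09), and 13.86 and 13.89 at 24 h, against 13.81 (0.06 ± 0.09). Atp5mc3, which codes for subunit c of the proton-driven rotor ring, had 14.66 and 14.58 in TA livers at 6 h, against 14.81 in the vehicle pool (-0.19 ± 0.10). At 24 h it had 14.89 and 14.88 in TA livers, against 14.81 in the vehicle pool (0.07 ± 0.10). Atp5mc1 and Atp5mc2 share probe sets with other symbols and were not used.

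**Figure D4:**
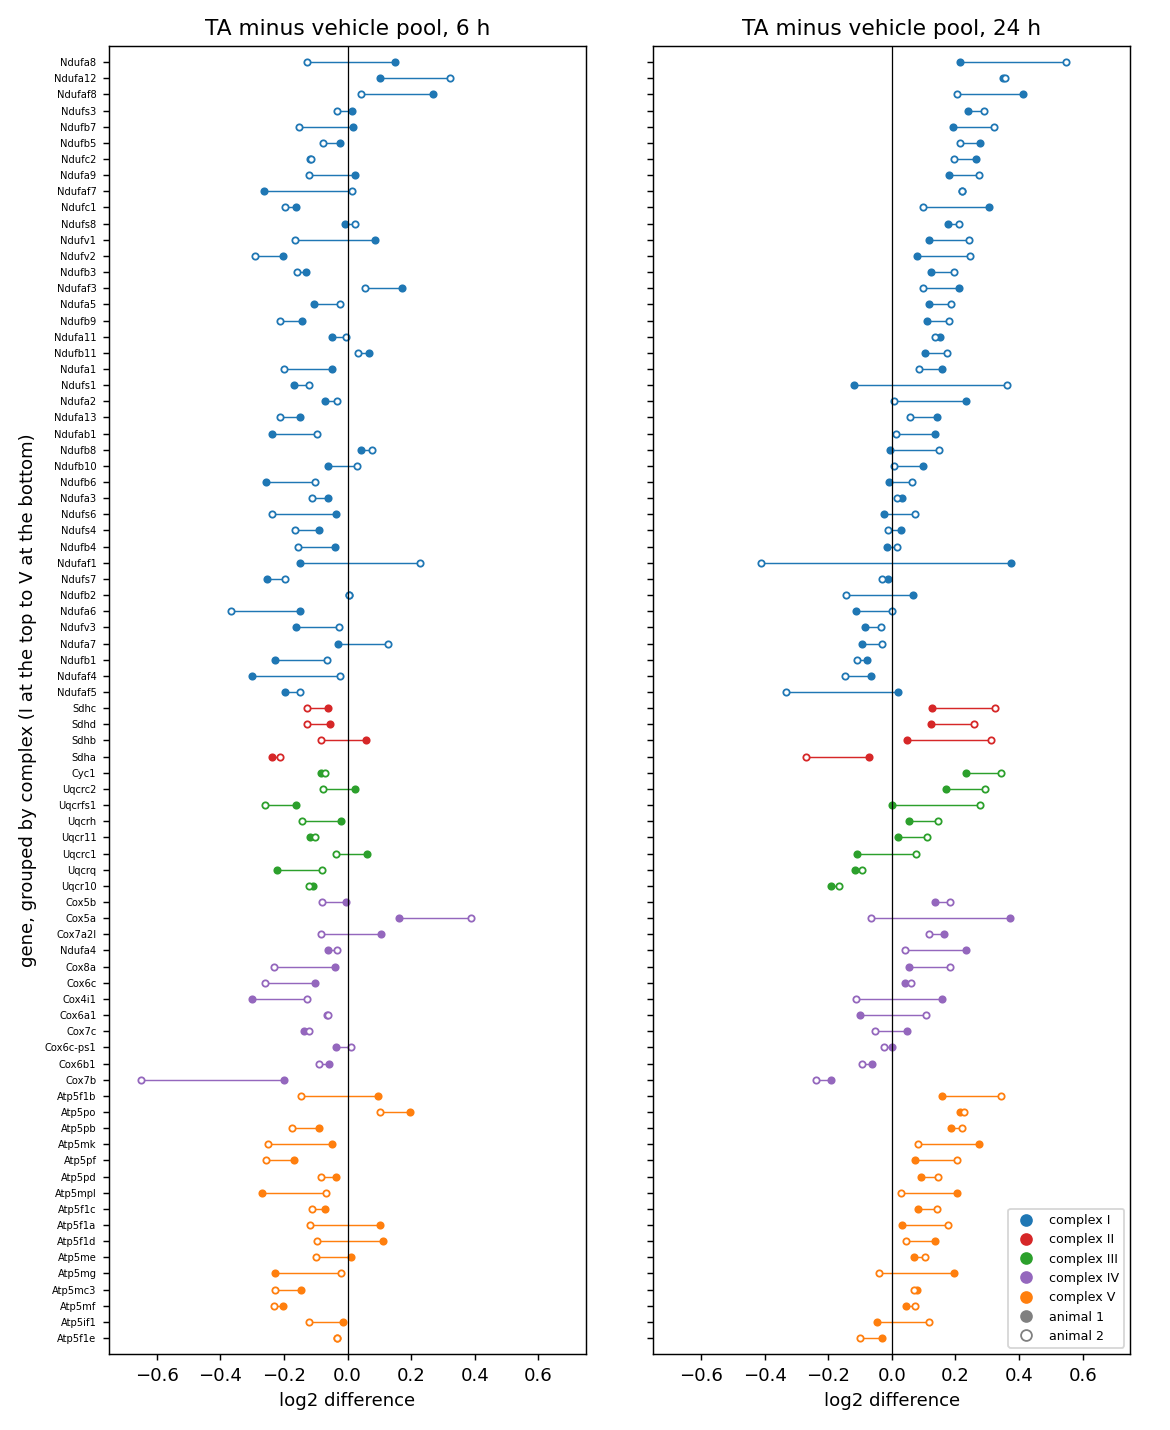
Log2 difference of TA from vehicle for each of the 80 measured members at 6 h and at 24 h, by complex, with animal 1 as a filled and animal 2 as an open point against the shared pool, joined by a line. Most pairs lie below 0 at 6 h (53 of 80 with both animals) and above 0 at 24 h (51 of 80).

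Grouped by part in the enzymes, the 18 core subunits had medians of -0.08 at 6 h and 0.15 at 24 h. In both animals 11 (61.1%) were lower and 0 higher at 6 h, and 14 (77.8%) were higher and 3 (16.7%) lower at 24 h. The 53 accessory subunits had -0.10 and 0.10, with 39 (73.6%) lower and 6 (11.3%) higher, then 33 (62.3%) higher and 7 (13.2%) lower. The bright genes had 49.5% lower and 17.9% higher, then 35.8% higher and 25.7% lower. The 9 genes that are no structural subunit had medians of -0.01 and 0.03. From 6 h to 24 h the pools changed by a median of -0.08 for core and 0.02 for accessory subunits. Without a pool the order of the 2 classes was the reverse. TA livers of 24 h minus those of 6 h had medians of 0.11 for core and 0.20 for accessory subunits. All 4 pairs were higher at 24 h for 9 of 18 (50%) and 43 of 53 (81.1%). The same held for 24.0% of all measured genes and 35.9% of the bright ones. The difference between core and accessory subunits was not tested. Among the 9 members with several probe sets, 6 other probe sets were above the filter. Their sign was that of the brighter one for 5 at 6 h and for 2 at 24 h, so that the 24 h direction of single genes is not settled by a second probe set. Ndufv3, an accessory subunit of complex I, had -0.06 at 24 h by its brighter probe set and 0.17 by the other.
Members with a motif in the promoter did not stand apart by much. The 6 h medians were -0.04 with and -0.09 without the NRF1 motif, -0.09 and -0.09 for ETS, and -0.13 and -0.09 for YY1. The 24 h medians were 0.08 with and 0.12 without the NRF1 motif, 0.12 and 0.08 for ETS, and 0.06 and 0.12 for YY1. A match is a run of letters and no evidence of binding.

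Genes around the chain were read from lists, some of which also hold members. The list of assembly factors includes the members Ndufaf1, Ndufaf3, Ndufaf4, Ndufaf5 and Ndufaf7, so that its medians are not independent of theirs. Cytochrome c and the ubiquinone and electron-transfer flavoprotein genes (14 measured) had medians of -0.01 and 0.10, with 0 called. In this list Coq10b, a binding protein of ubiquinone, had 8.15 and 8.15 in TA livers at 6 h, against 9.13 in the vehicle pool, a difference of -0.98 ± 0.09 (limma, adjusted p = 0.635), while the 3 arrays of 24 h lay between 9.14 and 9.28. Etfdh, which passes electrons of fatty acid oxidation to ubiquinone, had 12.22 and 12.28 in TA livers at 24 h, against 11.81 in the vehicle pool (0.44 ± 0.10, adjusted p = 0.904).
Assembly factors of complexes I to V (39 of 42 measured) had medians of -0.04 and 0.10, with 0 called. Surf1, an assembly factor of complex IV, had 0.20 ± 0.11 at 24 h, and Sco1, which delivers copper to it, 0.36 ± 0.20. Timmdc1, for complex I, had -0.28 ± 0.11 at 6 h, and Cox11, for complex IV, 0.58 ± 0.29.
Both cytochrome c oxidase genes of mitochondrial DNA on the array, COX1 and COX2, gave no common direction. COX1 had 14.72 and 15.52 in TA livers at 24 h, which straddled the vehicle pool at 15.39, and COX2 had -0.02 ± 0.13 at 6 h and 0.00 ± 0.13 at 24 h.

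Regulators of mitochondrial biogenesis (21 measured, 0 called) had medians of -0.06 at 6 h and -0.10 at 24 h, the second opposite in sign to the members. Ppargc1a, the coactivator PGC-1alpha, which raises respiratory genes in fasting liver, had 4.48 and 4.35 in TA livers at 24 h, against 5.40 in the vehicle pool (-0.98 ± 0.15, adjusted p = 0.904). At 6 h it had 6.34 and 6.55 in TA livers, against 6.60 in the vehicle pool, so that its level was also lower at 24 h in vehicle rats.
Esrra, the nuclear receptor that works with it, had 6.89 and 7.39 in TA livers at 24 h, against 6.41 in the vehicle pool (0.73 ± 0.25, adjusted p = 0.943); it was picked after its values were seen. Gabpb1, a subunit of GABP, had 7.14 and 7.46 in TA livers at 24 h, against 7.95 in the vehicle pool (-0.64 ± 0.17). Of the other genes for factors with a searched motif, Gabpa had 0.04 ± 0.16 at 6 h and -0.28 ± 0.16 at 24 h. In the same order Yy1 had -0.22 ± 0.18 and -0.09 ± 0.18, and Nrf1 0.03 ± 0.36 and 0.00 ± 0.36. Esrrg, a receptor related to Esrra, had 8.93 and 9.02 in TA livers at 6 h, against 8.37 in the vehicle pool (0.61 ± 0.12). Tfb2m, a mitochondrial transcription factor, had -0.28 ± 0.10 at 6 h.

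Further mitochondrial lists help to place the members, with 0 genes called in each. The 73 mitochondrial ribosomal proteins had medians of -0.06 and 0.05. In both animals 39 (53.4%) were lower and 14 (19.2%) higher at 6 h. At 24 h 32 (43.8%) were higher and 10 (13.7%) lower. In this order all measured genes had 38.4%, 22.9%, 28.1% and 34.5%, and the bright ones 49.5%, 17.9%, 35.8% and 25.7%. TA livers of 24 h stood above those of 6 h in all 4 pairs for 51 of the 73 (69.9%), a share close to the 70.0% of the respiratory chain genes. All measured genes had 24.0% and the bright ones 35.9%. In this comparison 25 of the 73 had an unadjusted limma p under 0.05, all higher at 24 h. In either direction the share was 17.0% of all measured genes. Higher at 24 h with such a p were 977 of the 10449 measured genes and 305 of the 2065 bright ones. In this list Mrpl34 had -0.40 ± 0.11 and Mrps22 -0.35 ± 0.10 at 6 h, and Mrpl15 had 0.48 ± 0.18 and Mrpl51 0.30 ± 0.10 at 24 h. The 42 measured cytosolic ribosomal proteins had medians of 0.00 and 0.02. In both animals 7 (16.7%) were lower and 8 (19%) higher at 6 h. At 24 h 14 (33.3%) were higher and 8 (19%) lower, beside the same background shares. Rplp0 had 0.19 ± 0.12 and Rpl34 -0.19 ± 0.09 at 6 h, and Rpl35a had -0.34 ± 0.12 and the dimmer Rps4y2 1.03 ± 0.63 at 24 h.
The 16 genes of the citric acid cycle and its entry had medians of -0.11 and 0.01. Ogdh, the first subunit of the 2-oxoglutarate dehydrogenase complex, had 9.09 and 9.25 in TA livers at 6 h, against 9.62 in the vehicle pool (-0.45 ± 0.14). Pyruvate carboxylase, Pc, had -0.41 ± 0.14 and -0.38 ± 0.14, and Idh3b 0.19 ± 0.11 at 24 h.
The list of nucleotide and phosphate carriers and uncouplers (11 measured, among them the member Atp5if1) had medians of -0.07 and 0.04. Slc25a30, an inner membrane carrier, had 9.20 and 10.67 in TA livers at 6 h, against 11.84 in the vehicle pool (-1.90 ± 0.68), and 9.79 and 9.91 at 24 h, against 8.73 (1.12 ± 0.68). The phosphate carrier Slc25a3, which supplies the ATP synthase, had -0.15 ± 0.11 and 0.18 ± 0.11.
The 38 genes of import and protein quality had medians of -0.05 and 0.06. Timm8a1, an import chaperone, had 0.45 ± 0.12 and 0.67 ± 0.12, and Timm21 -0.37 ± 0.13 and 0.47 ± 0.13. The 11 antioxidant genes had medians of -0.06 and 0.14. At 24 h 10 (90.9%) were higher in both animals, against 28.1% of all measured genes and 35.8% of the bright ones. Glutathione reductase, Gsr, had 0.50 ± 0.21 and 0.52 ± 0.21, Txnrd2 had 0.30 ± 0.11 at 24 h and Glrx2 -0.15 ± 0.10 at 6 h.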

How the data were processed

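Liver RNA of 8 male rats was measured on 6 arrays, and groups were taken from the labels. The log2 values are those the authors deposited. R 2.0.1, affy 1.5.8, RMA and GCRMA are named, per the submitters' processing notes, without saying which method gave these values. Such values have a dense floor between about 2 and 3, where differences are compressed. Arrays give no counting depth, so that their number limits the precision.

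The 57 control probe sets were left out, and so were 436 probe sets with several symbols, 7 of which carry a member's symbol. The annotation can be old: 20826 probe sets had 1 symbol and 9780 none. Probe sets with a mean above the 40th percentile (18625, representing 10449 genes) went into group-means fits in limma 3.58.1 under R 4.3.3 (lmFit, eBayes, 2 residual and 1.60 prior degrees of freedom), two-sided, with Benjamini-Hochberg adjustment over all of them. The vehicle groups have 1 array each, so that standard errors (SE) assume that a pool varies like a treated animal. The procedure was tested on simulated data for its estimates and false calls. No bar was set there for the share of true changes found.

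Counts of members beside all genes describe these arrays, and no set test was run. Members and lists were chosen with earlier results of these data known. Named genes were those always looked up, and per complex and time up to 2 each way with the largest difference on the same side of the pool in both animals, and per list the 2 with the smallest p. Ndufs3, Ndufv3 and Esrra were picked after their values were seen. Gabpa, Yy1 and Nrf1 were added, also with their values seen, because their motifs were searched. Alternatives covered the filter, normalization, the probe set summary, the prior, the control group, the members, the fluidics run, the replicate number as a block and leaving out each treated array.

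The replicate numbers do not pair the samples: the difference of replicate 1 and 2 at 6 h and that at 24 h correlated at -0.08 over probe sets, and the labels name different animals.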

Additional observations from a re-analysis of the deposited data

Results flagged for a closer look

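Both TA animals lay below their pool at 6 h and above it at 24 h for 31 of 80 members (38.8%). This course was taken by 10.3% of all measured genes and 14.1% of those with a mean of 10 or above. The text names 11 of these members, some of them chosen for lying on the same side of the pool in both animals. Limma tested each difference of effects (24 h minus 6 h, log2), and none passed, with an adjusted p of 1.0 for each. Its value was 0.41 for Ndufv2 in complex I. In complex II it was 0.32 for Sdhc and 0.28 for Sdhd. In complex III it was 0.36 for Cyc1 and 0.35 for Uqcrfs1. In complex IV it was 0.20 for Cox5b, 0.25 for Cox8a and 0.18 for Ndufa4. In complex V it was 0.26 for Atp5mc3, 0.28 for Atp5mf and 0.35 for Atp5pf. The median over the members turned in the same way in both animals of each time, by 0.19, and was not tested. The median over the genes with a mean of 10 or above turned the same way too, by 0.10. It was -0.04 and -0.09 for the animals of 6 h and 0.03 and 0.01 for those of 24 h. Over all measured genes the median difference of effects was 0.03.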

How the results depend on the processing

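No member was called at 6 h, at 24 h, over both times or for their difference under any of 17 alternatives. The median member difference at 24 h, 0.11, kept its sign in all 17, at 0.0699 with arrays centred on bright genes (added after seeing the data), 0.0785 with the vehicle pool of the other time, 0.0924 with quantile normalization, 0.0942 with both pools as 1 control group, 0.0992 without a filter, 0.106 with the mean of probe sets and 0.124 with arrays centred on their median. Leaving out each treated array gave 0.0951 to 0.114. The median member difference at 6 h, -0.09, kept its sign too, at -0.0237 with quantile normalization, -0.0321 centred on bright genes and -0.0619 with the fluidics run as a block, and leaving out arrays gave -0.102 to -0.0619. Members higher in both animals at 6 h were 23 with quantile normalization and 15 centred on bright genes, in place of 8, and members lower in both animals at 6 h were 31 and 35, in place of 53. Members lower in both animals at 24 h were 18 centred on bright genes, in place of 11. Leaving out an animal asks for 1 animal only in place of both, and gave 8 to 21 higher and 53 to 66 lower at 6 h, and 11 to 20 lower at 24 h. With the replicate block the medians were -0.09 and 0.11, it changed no call, and same-numbered animals do not belong together. Of 74 differences of named genes, 22 changed sign with the pool of the other time, 12 with quantile normalization, 10 centred on bright genes, 8 with both pools as 1 control group, 6 with the fluidics run as a block and 6 with the replicate block. Leaving out an array turned 2 to 6. A member's difference had a median SE of 0.12. The causes of these shifts were not tested.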
